A study of Homo sapiens with 12 samples.

Results

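The contrast described here asks how the ratio of a microRNA in extracellular vesicles (EVs) to the same microRNA in the cells that released them differed between a RAB27A knockdown line and its control line. It was taken over 396 miRNAs of the 2588 in the count table. These are the miRNAs with at least 20 counts summed over the 2 knockdown cell libraries and at least 20 over the 2 control cell libraries, a rule that does not use the EV libraries. Both lines were made from MDA-MB-231, a human triple-negative breast cancer cell line. The knockdown line stably carries a lentiviral short hairpin RNA against RAB27A, and the control line carries the empty vector. The labels do not say whether either line is a pool or a single clone. The 8 libraries fall into 4 groups of 2 replicates: EVs of the knockdown line, cells of the knockdown line, EVs of the control line and cells of the control line. Cells were grown with 10% fetal bovine serum and then kept for 24 h without serum in medium that held 1% bovine albumin. The vesicles were pelleted from that medium at 110000 g for 70 min, after a clearing spin at 10000 g, and washed.

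RAB27A is a small GTPase that helps multivesicular bodies dock at the plasma membrane before they fuse with it and release their internal vesicles as exosomes. Vesicles that bud from the plasma membrane leave the cell by other routes, and an ultracentrifuge pellet can hold both kinds together with RNA bound to proteins or lipoproteins. A miRNA is cut from a hairpin as a duplex, of which one arm, the guide, is usually kept in an Argonaute protein while the other is degraded, and its seed, bases 2 to 8 from the 5′ end, sets most of its targets.

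The table measures the share of each miRNA in a library and not the number of vesicles or the amount of RNA they held. A lower EV-to-cell ratio in the knockdown line is therefore a changed composition of the EV RNA relative to the cells, and fewer vesicles with the same content would leave it as it was. RAB27A itself is not measured by a miRNA table, so the knockdown could not be checked here. The line's usual miRNAs were abundant in all 8 libraries: miR-100-5p stood between 110515 and 335383 CPM (counts scaled to a common library total) and miR-29a-3p between 12289 and 21292 CPM. The epithelial miR-200b-3p did not exceed 249 CPM in any of the 8.

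The knockdown EV libraries were far shallower than the others, with 164656 and 170366 counts. Knockdown cells gave 3159478 and 3140610 counts, control EVs 2387336 and 2596391, and control cells 11840597 and 11066570. A single count was worth 6.07 and 5.87 CPM in the knockdown EVs, and 208 of the 396 miRNAs had fewer than 20 counts there over both libraries, 24 of them none. In control EVs 42 had fewer than 20 counts. The knockdown EV replicates also agreed least, with Pearson's r of 0.909 in log2 CPM over the 396 miRNAs, against 0.994 to 0.998 in the other 3 groups. In every group the replicates differed by more than counting noise.

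The sequences below, from RefSeq on GRCh38.p14 with the seed in capitals, belong to the miRNAs on which the results turn. RefSeq's table held a mature sequence for 349 of the 396. The first set shows the miRNAs of the miR-99/100 and miR-125 families and of let-7, whose EV-to-cell ratio was lower in the knockdown line.
miR-99a-5p: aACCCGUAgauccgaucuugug
miR-100-5p: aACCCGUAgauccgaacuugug
miR-125a-5p: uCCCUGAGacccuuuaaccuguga
miR-125b-5p: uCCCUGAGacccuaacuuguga
let-7c-5p: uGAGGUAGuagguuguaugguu
let-7a-5p: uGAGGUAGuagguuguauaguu
Counted from the 5′ end, miR-99a-5p and miR-100-5p differ only by U16A, and let-7c-5p and let-7a-5p only by G19A, so a sequencing error at that single base can move a read between the entries of a pair.

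The second set holds other miRNAs with lower ratios: 2 passenger strands, 1 member of an X-linked cluster, and the arms of miR-126.
miR-222-5p: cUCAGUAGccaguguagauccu
miR-27a-5p: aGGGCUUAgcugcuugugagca
miR-363-3p: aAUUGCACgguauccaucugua
miR-126-5p: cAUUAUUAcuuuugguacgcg
miR-126-3p: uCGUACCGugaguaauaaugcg
The third set holds miRNAs whose ratio was higher in the knockdown line. The AGCAGCA seed is shared by miR-15b-5p, miR-15a-5p and miR-424-5p, and the GUGCAAA seed by miR-19a-3p and miR-19b-3p, which differ by U11C.
miR-15b-5p: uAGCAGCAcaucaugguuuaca
miR-15a-5p: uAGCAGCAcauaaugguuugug
miR-424-5p: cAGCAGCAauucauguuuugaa
miR-19a-3p: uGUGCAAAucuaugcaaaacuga
miR-19b-3p: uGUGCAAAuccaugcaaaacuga
miR-21-5p: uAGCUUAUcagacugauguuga

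Of the 396 miRNAs, 392 passed the filter on low counts and were tested. The EV-to-cell ratio differed between the lines for 116 of them at an adjusted p under 0.05 (edgeR's quasi-likelihood test, trimmed mean of M values (TMM) scaling, Benjamini-Hochberg adjustment over all 540 miRNAs tested). The ratio was lower in the knockdown line for 98 and higher for 18, which is 29.6% of the 392 in all. Entries with identical counts were each counted. The 98 hold 6 such entries of a placental cluster on chromosome 19, which had 2 counts in knockdown EVs. The 18 hold the identical miR-365a-3p and miR-365b-3p. Over all 540 tested, 24.8% were called, 20.9% as lower and 3.89% as higher. The 392 are most of those 540, so the 2 shares are not independent. The 148 tested miRNAs outside the 396 had 15 lower and 3 higher calls.

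How the libraries are scaled changed which miRNAs were called and how the calls split by direction. Scaled by total counts, 49 were lower and 68 higher. With relative log expression factors (RLE) 70 were lower and 39 higher, and DESeq2 called 69 lower and 51 higher. Of the called miRNAs, 7 changed sign with total counts and 0 with RLE or in DESeq2. The median log2 change over the 392 was -0.33 under TMM, -0.06 under RLE, -0.05 in DESeq2 and 0.17 with total counts, so the medians under TMM and total counts lay 0.50 apart. The results below therefore rest on the miRNAs called in the same direction under all 4 scalings, which were 49 lower and 18 higher. That is 12.5% and 4.59% of the 392, against 11.9% and 3.89% of all 540 tested by the same criterion. Each log2 change printed below is on the TMM scale, with its SE, and each adjusted p is edgeR's.

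**Figure D1:**
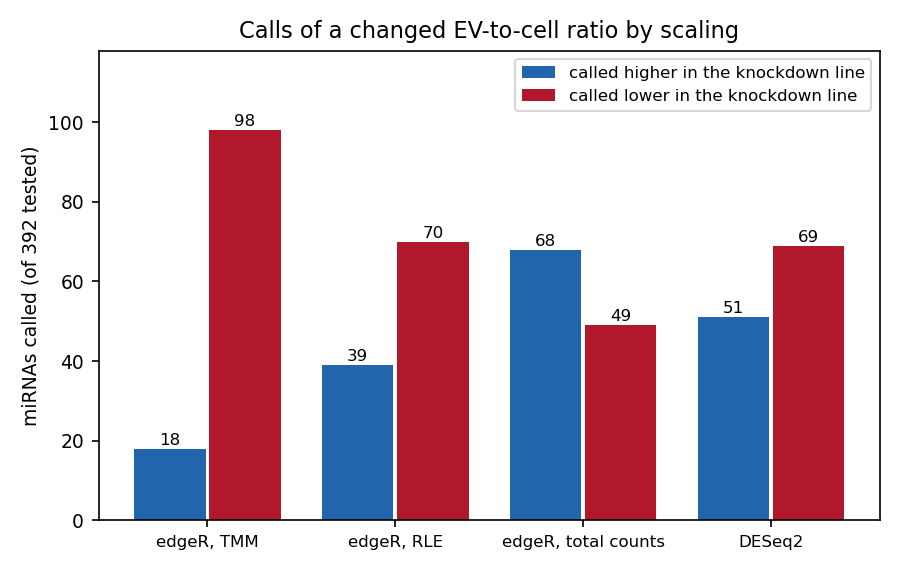
Number of the 392 tested miRNAs whose EV-to-cell ratio was called higher (blue) or lower (red) in the knockdown line, for 4 scalings (horizontal axis). The total is near 116 in each, while the split between the directions runs between 18 higher with 98 lower under TMM and 68 higher with 49 lower with total counts.

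Within a line, EVs and cells differed for 100 of the 392 miRNAs in the knockdown line and for 221 in the control line. Over all 540 tested, the knockdown line had 22.2% called, 9.07% higher and 13.1% lower in EVs, and the control line 57.2%, with 38.5% higher and 18.7% lower in EVs. Library depth differed between the lines as well, and with every library thinned to the size of the shallowest the counts were 68 in the knockdown line and 91 in the control line. Among the 98 miRNAs with a lower ratio, 50 were not called in the knockdown line and EV-enriched in the control line. Another 15 were EV-depleted in the knockdown line and EV-enriched in the control line, 16 were depleted in the knockdown line and not called in the control line, 12 were depleted in both and 5 were enriched in both. Of the 18 with a higher ratio, 7 were not called in the knockdown line and EV-depleted in the control line, 2 were enriched in the knockdown line and depleted in the control line, and 5 were enriched in the knockdown line and not called in the control line.

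**Figure D2:**
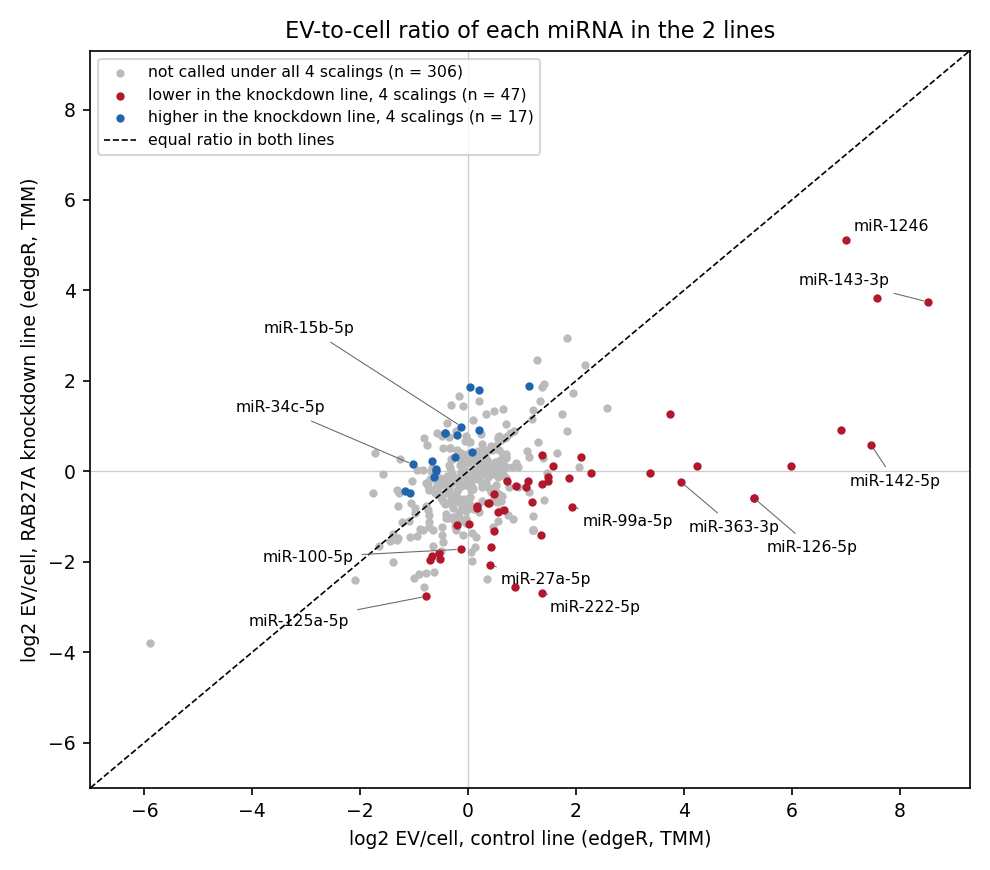
The log2 EV-to-cell ratio of each miRNA in the knockdown line (vertical axis) against that in the control line (horizontal axis), edgeR estimates on the TMM scale, for the 370 tested miRNAs with a count in both EV groups. Red points (47) were lower and blue points (17) higher in the knockdown line under all 4 scalings, and grey points (306) were not. Among the red points at the far right, miR-126-5p and miR-142-5p lay near 0 in the knockdown line and above 5 in the control line, while miR-143-3p and miR-1246 had positive ratios in both.

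Large drops were seen for miRNAs known from other cell types. miR-126, whose 2 arms are made mainly by endothelial cells, illustrates the group. miR-126-5p had 48.6 and 93.9 CPM in knockdown EVs and 76.9 and 82.2 CPM in knockdown cells, against 1603 and 1392 CPM in control EVs and 40.5 and 38.7 CPM in control cells. Only the control EVs stood high, and they did not overlap with any other group. The log2 EV-to-cell ratio was -0.59 in the knockdown line and 5.30 in the control line, a change of -5.90 ± 0.26 (SE, adjusted p = 6.43e-100). Its other arm, miR-126-3p, changed by -4.14 ± 0.22.

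The leukocyte miRNA miR-142-5p showed the same layout. It held 1 and 4 counts in the knockdown EV libraries, or 6.07 and 23.5 CPM, with 6.96 and 7.64 CPM in knockdown cells. Control EVs held 1048 and 874 CPM of it and control cells 5.66 and 5.60 CPM, so that the ratio changed by -6.88 ± 0.52. miR-142-3p had 3 counts over the 2 knockdown EV libraries, and its ratio was 41-fold lower in the knockdown line (exact 95% interval 12.6 to 215, counting error only). The erythroid miR-486-5p, with 128 and 129 CPM in knockdown EVs against 2560 and 2671 CPM in control EVs, changed by -3.40 ± 0.24. Among miRNAs of smooth muscle and fibroblasts, miR-143-3p changed by -4.77 ± 0.42 and remained higher in EVs than in cells in both lines, while miR-199a-5p had 1 count in knockdown EVs and a ratio 42.7-fold lower (6.61 to 1687). miR-10b-5p, a homeobox-cluster miRNA, had 3 counts in knockdown EVs and 5897 in control EVs, and its ratio was 45.2-fold lower (13.4 to 231).

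The summed marker lists for blood and stroma were also highest in control EVs, though not every miRNA on them was called. For miR-486-3p, with 74 counts in control EVs and 105 in control cells, the change was -0.43 (adjusted p = 0.903 in edgeR). The summed level of 11 erythroid and leukocyte miRNAs was 170 and 264 CPM in knockdown EVs and 112 and 113 CPM in knockdown cells, against 11527 and 9895 CPM in control EVs and 289 and 275 CPM in control cells. Of the 11, 6 had a count in knockdown EVs and 10 in control EVs. The 5 at 0 in knockdown EVs were miR-144-5p, miR-223-3p, miR-223-5p and both arms of miR-150. Of these, miR-150-3p had no count in any group. The defining erythroid miR-451a had 15 counts in knockdown EVs and 22241 in control EVs. The summed level of 10 stromal miRNAs was 115 and 112 CPM in knockdown EVs and 13.3 and 16.6 CPM in knockdown cells, against 3849 and 3934 CPM in control EVs and 20.2 and 22.05 CPM in control cells. Of these 10, 2 had a count in knockdown EVs and 9 in control EVs. The entries miR-199a-3p and miR-199b-3p had identical counts in each group, so the stromal sum holds the same counts under both names. The EVs of a further line of the series, edited at miR-122, summed to 226 and 158 CPM for the blood list and 54.6 and 40.4 CPM for the stromal list, so the control EVs stood apart from both other EV groups. Whether these miRNAs came from the cancer cells, from serum or from another source was not tested, and a result for one of them rests on the level in the control EVs. With the blood, stromal and endothelial lists left out of the fit, 88 miRNAs were lower and 17 higher. At the depth of the shallowest library miR-10b-5p stood at -2.13 (adjusted p = 0.942), miR-142-3p at -3.45 (adjusted p = 0.274) and miR-143-3p at -4.17 (adjusted p = 0.0659) in edgeR.

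A set of miRNAs that the knockdown cells held at far higher levels than the control cells also had lower ratios. The miR-99a, let-7c and miR-125b-2 cluster on chromosome 21 shares a host transcript, and its 3 tested miRNAs were lower under all 4 scalings. miR-99a-5p had 6529 and 5564 CPM in knockdown EVs and 8129 and 7242 CPM in knockdown cells, against 1323 and 1357 CPM in control EVs and 373 and 361 CPM in control cells. Cells of the knockdown line thus held 20.9-fold more of it than control cells, and the EVs 4.51-fold more. Its log2 EV-to-cell ratio was -0.79 in the knockdown line and 1.93 in the control line, a change of -2.72 ± 0.15 (adjusted p = 2.87e-65). For let-7c-5p the cell levels differed 10.1-fold and the EV levels 4.16-fold, and its ratio changed by -1.78 ± 0.25. Counts of miR-99a-5p were 5.91 and 4.28% of those of its near-identical miR-100-5p in knockdown EVs and 2.71 and 2.54% in knockdown cells, against 0.478 and 0.469% in control EVs and 0.111 and 0.114% in control cells. The share was not the same in all libraries. miR-125b-2-3p, with 43 counts in knockdown EVs and 18 in control EVs, changed by -2.03 ± 0.57.

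The miR-106a-363 cluster (chrX:134169378-134170278, minus strand, GRCh38.p14) is a paralogue of the miR-17-92 cluster and showed the same layout of levels. miR-363-3p had 182 and 200 CPM in knockdown EVs and 167 and 163 CPM in knockdown cells, against 17.6 and 10.4 CPM in control EVs and 1.18 and 0.633 CPM in control cells. Both knockdown groups lay above both control groups without overlap, and within the control line the EVs lay above the cells. The level differed 182-fold between the lines in cells and 13.6-fold in EVs, and the ratio changed by -4.17 ± 0.41 (adjusted p = 9.13e-22). miR-20b-5p changed by -1.61 ± 0.43. The other tested miRNA, miR-106a-5p, was not called under every scaling. For miR-125b-2-3p the change was -1.58 (adjusted p = 0.144) without control EV replicate 2, and for miR-20b-5p it was -1.24 (adjusted p = 0.0785) without control EV replicate 1. With all libraries thinned to the shallowest depth, miR-99a-5p and miR-363-3p were still called. At that depth let-7c-5p stood at -0.38, miR-125b-2-3p at -0.16 and miR-20b-5p at 1.25, none of them past the threshold.

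The most abundant miRNA of the cells, miR-100-5p, stood low in the knockdown EVs. It made up 110515 and 130120 CPM of knockdown EVs and 300116 and 285315 CPM of knockdown cells, against 276702 and 289698 CPM of control EVs and 335383 and 316649 CPM of control cells. Both knockdown EV libraries lay below all 6 others, whose ranges were close to one another. The ratio changed by -1.59 ± 0.13 (adjusted p = 1.24e-32). miR-125b-5p, transcribed from the same cluster on chromosome 11 and from that on chromosome 21, had 3686 and 5030 CPM in knockdown EVs and 12387 and 12332 CPM in knockdown cells, against 10888 and 11066 CPM in control EVs and 16559 and 16471 CPM in control cells. It changed by -1.42 ± 0.14. miR-125a-5p, from another paralogous cluster on chromosome 19, had 941 and 1479 CPM in knockdown EVs and 6080 and 6056 CPM in knockdown cells, against 3641 and 4033 CPM in control EVs and 6829 and 6968 CPM in control cells. It was depleted from EVs in both lines, with log2 ratios of -2.77 in the knockdown line and -0.78 in the control line, and the change was -1.98 ± 0.16.

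All 3 tested miRNAs with the ACCCGUA seed and both with the CCCUGAG seed had lower ratios. miR-99b-5p, also of the ACCCGUA group, changed by -0.64 ± 0.14 under TMM. Its value was -0.13 with total counts, -0.35 (adjusted p = 0.0982) without control EV replicate 2 and -0.44 (adjusted p = 0.0538) without control cell replicate 2. These families restrain growth and survival pathways in many epithelial cells, miR-100 and miR-99a through mTOR among other targets.

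**Figure D3:**
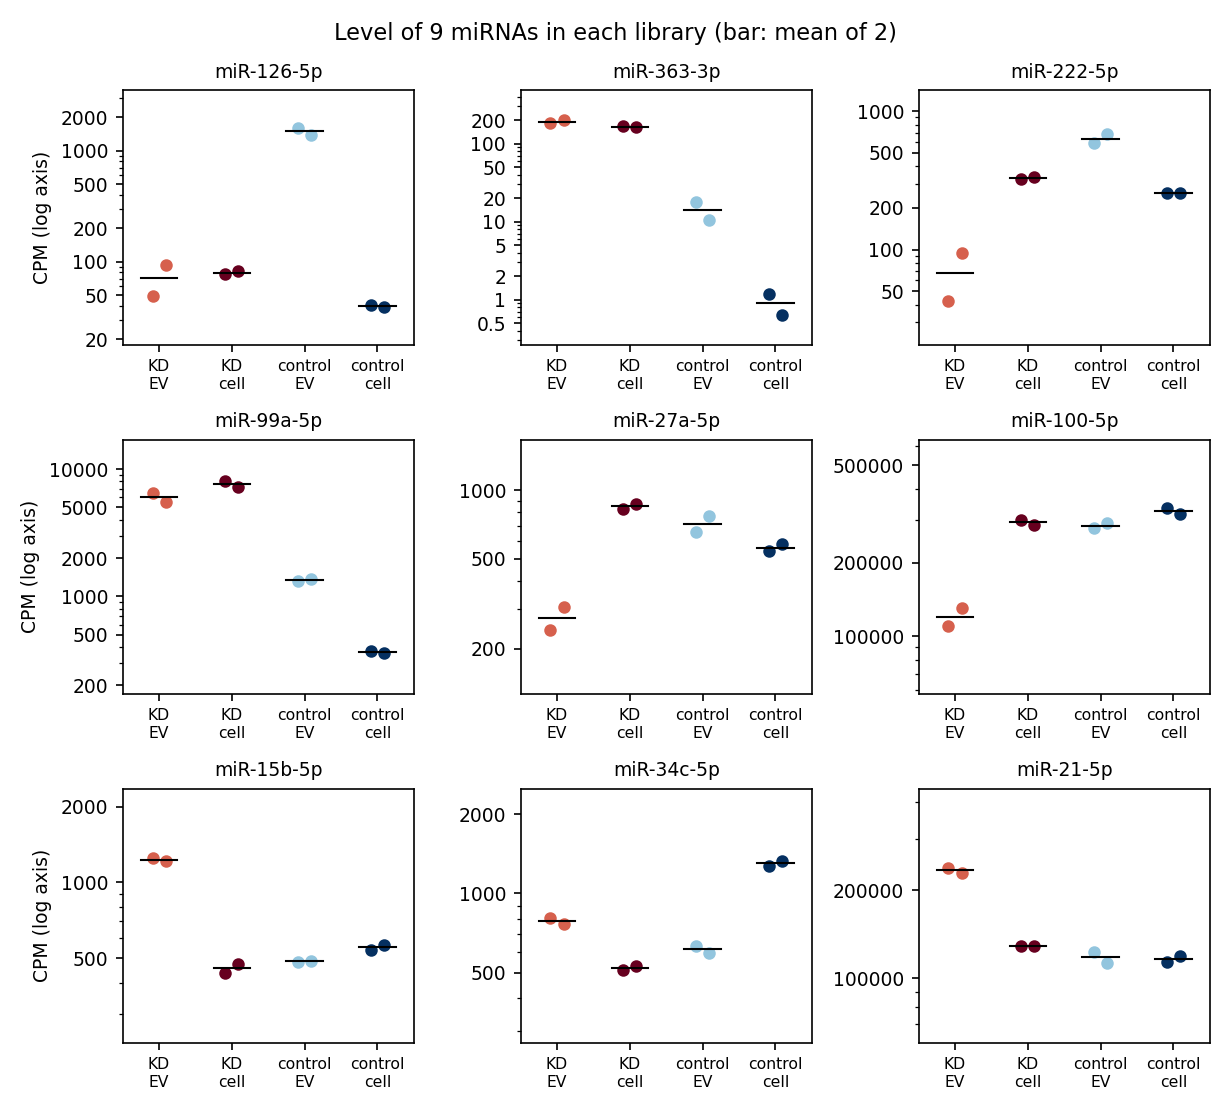
CPM (log axis, a different range in each panel) of 9 miRNAs in each of the 8 libraries, with the mean of 2 replicates as a bar, in knockdown (KD) EVs, knockdown cells, control EVs and control cells. The upper 6 had a lower EV-to-cell ratio in the knockdown line: miR-126-5p is high only in control EVs, miR-363-3p and miR-99a-5p are high in both knockdown groups, and miR-222-5p, miR-27a-5p and miR-100-5p are low only in knockdown EVs. The lower 3, miR-15b-5p, miR-34c-5p and miR-21-5p, had a higher ratio.

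The let-7 family, which holds back proliferation and stem cell programmes, was lower in part. Of its 9 guide strands, all tested, 6 were called lower and none higher, where 20.9% of all 540 tested were lower. Of the 6, 3 were lower under every scaling, as were 11.9% of the 540: let-7c-5p, let-7a-5p and miR-98-5p. let-7a-5p had 11381 and 15426 CPM in knockdown EVs and 12171 and 10803 CPM in knockdown cells, against 24518 and 22486 CPM in control EVs and 14360 and 15325 CPM in control cells. Its log2 EV-to-cell ratio was -0.22 in the knockdown line and 0.72 in the control line, and the change was -0.94 ± 0.14 (adjusted p = 3.16e-10). miR-98-5p, which has the let-7 seed, changed by -1.41 ± 0.16. Its passenger strand miR-98-3p had no count in the knockdown EVs, against 115 counts in control EVs, so its ratio was at least 5.87-fold lower, taking 3 counts over both libraries as the limit. let-7i-5p, the most abundant let-7 in each of the 4 groups, stood at -0.20 ± 0.14 (adjusted p = 0.315), and with total counts that value was 0.30 (adjusted p = 0.0485).

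Other guide strands had lower ratios as well. miR-26b-5p, of a family that targets cell cycle genes, had 3990 and 5318 CPM in knockdown EVs and 3800 and 4204 CPM in knockdown cells, against 16473 and 14281 CPM in control EVs and 6931 and 7939 CPM in control cells. Its change was -1.33 ± 0.15. In the same family, both knockdown EV libraries lacked counts of the passenger strand miR-26a-2-3p, giving a ratio at least 1.88-fold lower. Without knockdown EV replicate 2 the adjusted p of miR-26a-2-3p was 0.092. miR-191-5p changed by -1.46 ± 0.15 and miR-425-5p, from a neighbouring hairpin, by -0.97 ± 0.15. miR-30c-5p changed by -0.997 ± 0.15, miR-29b-3p by -0.996 ± 0.19, miR-182-5p by -0.93 ± 0.16 and miR-183-5p by -0.98 ± 0.17. Of the families these belong to, 3 of 11 miR-30, 2 of 7 miR-29 and 2 of 4 miRNAs of the miR-183 cluster were called lower and none higher. For miR-30 and miR-29 that is near the 20.9% of all 540 tested that were lower.

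Passenger strands of 2 oncogenic clusters had large drops. miR-222-5p is the passenger of miR-222, which with miR-221 represses the cell cycle inhibitor p27. It had 42.5 and 93.9 CPM in knockdown EVs, from 7 and 16 counts, and 323 and 332 CPM in knockdown cells, against 586 and 681 CPM in control EVs and 257 and 257 CPM in control cells. It was depleted from EVs in the knockdown line (log2 ratio -2.70) and enriched in the control line (1.37), a change of -4.06 ± 0.27 (adjusted p = 5.22e-48). The guide of the same hairpin, miR-222-3p, changed by -0.74 ± 0.14 and the guide miR-221-3p by -0.35 ± 0.13. Neither guide was called under every scaling, and with total counts miR-221-3p stood at 0.15. Without any single one of the 8 libraries its adjusted p ran between 0.176 and 0.625. The passenger miR-221-5p, lower under every scaling, changed by -1.20 ± 0.15.

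The miR-23a, miR-27a and miR-24-2 cluster (chr19:13836287-13836659, minus strand, GRCh38.p14) had 3 of 6 miRNAs lower under every scaling. The share over all 540 tested was 11.9%. miR-27a-5p had 243 and 305 CPM in knockdown EVs and 831 and 875 CPM in knockdown cells, against 654 and 771 CPM in control EVs and 538 and 580 CPM in control cells. Only the knockdown EVs stood low, and the change was -2.49 ± 0.20 (adjusted p = 2.77e-32). miR-27a-3p, the guide, changed by -1.20 ± 0.14 and miR-24-2-5p by -1.28 ± 0.25. miR-23a-3p, cut from the same transcript, had a value of -0.03 ± 0.14 that did not pass the test, and with total counts it stood at 0.47 (adjusted p = 0.00287). In the paralogous miR-23b, miR-27b and miR-24-1 cluster none of 5 tested miRNAs was called in either direction, where 24.8% of all 540 tested were. There miR-27b-3p, which differs from miR-27a-3p near its 3′ end, had -0.22 ± 0.14 (adjusted p = 0.269). The difference between the 2 clusters was not itself tested.

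A small group consists of entries whose sequence overlaps other abundant RNAs, such as ribosomal RNA and small nuclear RNA fragments. Under TMM 6 of its 7 tested entries were called lower, where 20.9% of all 540 tested were. Under all 4 scalings 3 were lower, where 11.9% of the 540 were. miR-1246 was strongly EV-enriched in both lines, with 741 and 775 CPM in knockdown EVs and 16.8 and 15.3 CPM in knockdown cells, against 476 and 412 CPM in control EVs and 2.62 and 4.61 CPM in control cells. The log2 ratio was 5.12 in the knockdown line and 7.001 in the control line, a change of -1.88 ± 0.28. miR-4516 changed by -3.74 ± 0.40. With all libraries thinned to the shallowest depth miR-1246 stood at -4.73 (adjusted p = 0.022, edgeR) and miR-4516 stood at 1.89 with an adjusted p of 0.602, so at equal depth the direction of miR-4516 was not resolved.

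The ratio was higher in the knockdown line under all 4 scalings for 18 miRNAs. Several of them belong to the miR-15/16 family, which arrests the cell cycle by repressing cyclins and BCL2. Of its 9 tested members 4 were higher and 2 were lower, against 3.89% and 20.9% of all 540 tested, and the 4 higher ones are guides: miR-15b-5p, miR-15a-5p, miR-424-5p and miR-503-5p. miR-15b-5p had 1245 and 1221 CPM in knockdown EVs and 438 and 476 CPM in knockdown cells, against 485 and 488 CPM in control EVs and 539 and 565 CPM in control cells. Both knockdown EV libraries lay above all 6 others. The change was 1.11 ± 0.17 (adjusted p = 8.97e-10). miR-503-5p changed by 0.55 ± 0.17, miR-15a-5p by 0.63 ± 0.19 and miR-424-5p by 0.60 ± 0.18. The abundant miR-16-5p, with 0.18 ± 0.15, did not pass the test under TMM (adjusted p = 0.416). It was called higher in edgeR with RLE factors, at 0.45 (adjusted p = 0.00404), and with total counts, at 0.69 (adjusted p = 2.87e-05). DESeq2 also called miR-16-5p higher, at 0.45 (adjusted p = 0.00171). After thinning to the shallowest depth it stood at 0.39 (adjusted p = 0.037, edgeR). The 2 lower members are passenger strands. miR-15b-3p changed by -1.80 ± 0.45 and miR-16-2-3p by -1.87 ± 0.36, so both arms of the miR-15b hairpin were called, in opposite directions, which held for 1 of the 98 hairpins with both arms tested. Without knockdown EV replicate 2 miR-424-5p stood at 0.43 with an adjusted p of 0.157, and without knockdown EV replicate 1 miR-15b-3p stood at -1.25 with an adjusted p of 0.115.

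miR-34c-5p, a p53-induced miRNA, had a log2 EV-to-cell ratio of 0.15 in the knockdown line and -1.03 in the control line. It had 808 and 763 CPM in knockdown EVs and 511 and 529 CPM in knockdown cells, against 631 and 593 CPM in control EVs and 1277 and 1329 CPM in control cells. The EV levels were close in the 2 lines while the cell levels differed, and the change was 1.18 ± 0.18 (adjusted p = 5.57e-10). miR-7-5p, which represses the EGF receptor, held 1992 and 2806 CPM in knockdown EVs and 2422 and 2356 CPM in knockdown cells, against 2547 and 2292 CPM in control EVs and 5731 and 5631 CPM in control cells, again with like EV levels, and changed by 0.73 ± 0.15. miR-138-5p changed by 0.60 ± 0.19 and miR-152-3p by 0.72 ± 0.19. Without knockdown EV replicate 1, miR-152-3p stood at 0.52 with an adjusted p of 0.137. With a GC correction miR-138-5p stood at 0.35 and miR-503-5p at 0.31, neither past the threshold. The level in knockdown cells was 0.342 times that in control cells for miR-138-5p, 0.395 times for miR-152-3p, 0.399 times for miR-34c-5p and 0.420 times for miR-7-5p.

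In the miR-17-92 cluster, an oncogenic polycistron on chromosome 13, 2 of 10 miRNAs were higher and 1 was lower, against 3.89% and 20.9% of all 540 tested, and the 2 were the pair with the GUGCAAA seed. miR-19a-3p had 783 and 834 CPM in knockdown EVs and 509 and 513 CPM in knockdown cells, against 363 and 304 CPM in control EVs and 529 and 575 CPM in control cells. Its cell levels were close in the 2 lines, its EV level was 2.42-fold higher in the knockdown line, and the ratio changed by 0.89 ± 0.18 (adjusted p = 6.12e-06). miR-19b-3p changed by 0.51 ± 0.16. The identical entries miR-365a-3p and miR-365b-3p, which share their reads, changed by 1.26 ± 0.29.

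miR-21-5p, an oncogenic miRNA that represses PDCD4, was the most abundant miRNA of the knockdown EVs. It made up 238588 and 229471 CPM there and 129077 and 129051 CPM of knockdown cells, against 123369 and 112573 CPM of control EVs and 113447 and 119422 CPM of control cells. Both knockdown EV libraries stood above all others, 1.98-fold above the control EVs. The change was 0.34 ± 0.13 on the TMM scale (adjusted p = 0.0362) and 0.84 with total counts. Without the blood, stromal and endothelial lists in the fit it was 0.36 with an adjusted p of 0.0636, and without the robust estimate of spread the adjusted p was 0.0604. CPM are shares of one total, so the levels of miRNAs as abundant as miR-21-5p and miR-100-5p are not independent of each other.

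**Figure D4:**
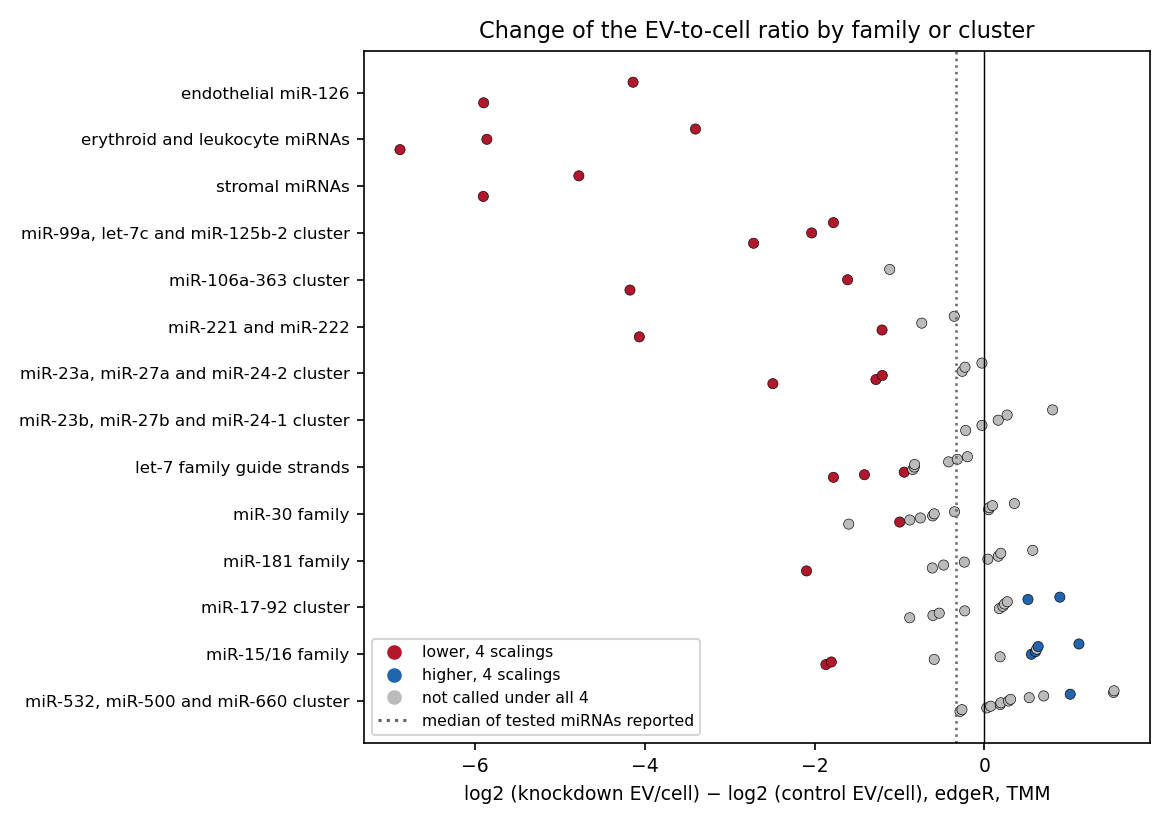
Change of the log2 EV-to-cell ratio, knockdown minus control line (horizontal axis, TMM scale), of each tested miRNA with a count in the knockdown EVs, by family, cluster or marker list (rows). Red and blue points were called lower or higher under all 4 scalings, grey points were not, and the dotted line marks the median of the 392 tested miRNAs, -0.33. The marker lists and the miR-99a cluster lie left of it throughout, and the miR-15/16 family has called points on both sides.

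In several families few or no miRNAs were called under TMM. Over all 540 tested the share was 24.8%, with 20.9% lower and 3.89% higher. None of 8 tested miRNAs of the miR-130, miR-301 and miR-454 family was called, and 1 of 14 in the X-linked miR-532, miR-500 and miR-660 cluster was called, as higher: miR-500a-5p, at 1.01 ± 0.39. That call was lost, with adjusted p between 0.0553 and 0.438, without knockdown EV replicate 1, knockdown cell replicate 2, control EV replicate 1 or control cell replicate 1. With a replicate block within each line it was 1.00 with an adjusted p of 0.0546, and after thinning to the shallowest depth 1.19 with an adjusted p of 0.402. In the miR-181 family 1 of 9 was called, the passenger miR-181a-2-3p, at -2.09 ± 0.49, while the guide miR-181a-5p had 0.19 ± 0.14 (adjusted p = 0.375). That guide was called higher in edgeR with RLE factors, at 0.46 (adjusted p = 0.00253), and with total counts, at 0.70 (adjusted p = 1.36e-05). DESeq2 also called miR-181a-5p higher, at 0.46 (adjusted p = 4.17e-06). After thinning to the shallowest depth it stood at 0.50 (adjusted p = 0.00957, edgeR). A missed threshold in these families does not show an equal ratio in the 2 lines.

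Arms of a hairpin were compared as a description. In the 98 hairpins with both arms tested, the arm with fewer counts had the lower change in 53, and in the 33 with at least 20 counts of both arms in knockdown EVs it did in 16. Under TMM, 14 of the 98 arms with fewer counts were called lower and 2 higher. Among the 98 more abundant arms 32 were lower and 3 higher, with 10 hairpins lower in both. Over all 540 tested 20.9% were lower and 3.89% higher. The arms of a hairpin differ in counts, and whether this shaped the calls was not tested.

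Short sequence features were counted in the sets called under all 4 scalings. The letters GGAG, a motif described for sorting of miRNAs into exosomes in T cells, searched on the mature strand only, occurred in 2 of 42 lower miRNAs with a sequence (4.8%), in 2 of 17 higher ones (11.8%), in 8.4% of the 346 tested with a sequence and in 9.2% of all 476 tested miRNAs with a sequence. GGCU occurred in 9.5% of the lower, in none of the higher and in 11.3% of all 476. A uridine as first base stood in 54.8% of the lower, 76.5% of the higher and 42.5% of the 346. GC content had a median of 46.5% in the lower and 39.1% in the higher set and 47.8% over the 346, and Spearman's correlation of GC content with the change was 0.037 over those 346 miRNAs, which share libraries and families. These are descriptions, since members of a family share their bases.

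At the edge of the rule, miR-3187-3p, miR-378d and miR-4454 had just 20 counts in knockdown cells, with values of 0.10, 0.34 and 1.18, none past the threshold, and miR-375 and miR-3617-3p, at the same count, were not tested. Of the miRNAs with 19 counts in one cell group, miR-2278 stood at -1.21, miR-488-3p at -1.23, miR-561-5p at -0.39 and miR-580-3p at 2.51, none past it either, and miR-34b-3p had no count in knockdown EVs. The main liver miRNA, miR-122-5p, is outside the rule because control cells held 9 counts of it. It had 12 counts in knockdown EVs and 79 in knockdown cells, against 1441 in control EVs and 9 in control cells. These are raw counts and not levels. The group totals were 335022 in knockdown EVs, 6300088 in knockdown cells, 4983727 in control EVs and 22907167 in control cells.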

How the data were processed

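The deposited values are whole-number counts per mature miRNA for each library, not normalized, which the authors made from small RNA reads of 17 to 52 nt, per the labels' protocols. Trimming and alignment tools named in the submitters' processing notes are cutadapt and Bowtie, with build hg19. Their versions, the annotation and how reads with several matches were assigned: not given in the sources used. Among the 396 miRNAs, 5 sets of entries held identical counts in all 8 libraries and share their reads. Library depth ran from 164656 to 11840597 counts.

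The 8 libraries were fitted together with a mean per group, without a replicate block, in edgeR 4.0.16 (limma 3.58.1, R 4.3.3): TMM factors, filterByExpr, robust glmQLFit and the contrast of the 2 EV-to-cell differences, with Benjamini-Hochberg adjustment over 540 miRNAs and a threshold of 0.05. On simulated data with known changes, the share of false calls exceeded the threshold in every draw under TMM, RLE and DESeq2 and in most draws with total counts. Among calls shared by all 4 scalings it was below that under TMM in every draw but still exceeded the threshold in most, so single calls near the threshold are uncertain. The SE is the change divided by the square root of F. The spread was pooled almost wholly over miRNAs (prior degrees of freedom of 1716 or more), so very small p-values reflect the pooled spread rather than that of 1 miRNA. Levels are CPM on total counts. Where a miRNA had 1 to 3 counts in knockdown EVs, the ratio of pooled CPM ratios has an exact conditional 95% interval, and where it had none, 3 counts over the group set the bound. Without molecular identifiers, these cover counting error only. The labels number 2 replicates per group and do not say that these were separate cultures, so the spread behind each p-value may be only technical.

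The miRNAs reported and the lists were chosen with earlier results of these data known. Names follow a rule: among tested miRNAs at or above the median level, up to 15 per direction by size of change with EV-to-cell ratios that do not overlap between the lines, the 10 most abundant, up to 4 of the most abundant of each of 33 lists, and the other arm of each. After the values were seen, 2 choices were made: the requirement of a call under all 4 scalings (TMM, RLE, total counts, DESeq2 1.42.0) and the names of miR-98-5p, miR-98-3p, miR-99b-5p, miR-125b-5p, miR-181a-2-3p, miR-191-5p, miR-425-5p, miR-24-2-5p and miR-500a-5p. Alternatives covered scaling, filters, thinning, GC correction, the replicate block, all 12 libraries and each replicate left out.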

Additional observations from a re-analysis of the deposited data

Results flagged for a closer look

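The EV-to-cell ratio differed between the knockdown and the control line, by the test of that difference in edgeR, for 116 miRNAs in all, 98 of them lower and 18 higher in the knockdown line. The values that follow are log2 changes on the TMM scale, knockdown minus control line, each with an adjusted p under 0.05 and with EV-to-cell ratios that did not overlap between the lines for any choice of libraries. The levels themselves can overlap between groups. Among miRNAs of blood, endothelial and stromal cells, the change was -6.88 for miR-142-5p, -5.86 for miR-142-3p, -5.90 for miR-126-5p, -4.14 for miR-126-3p, -4.77 for miR-143-3p and -3.40 for miR-486-5p. It was -6.01 for miR-10b-5p and -2.74 for miR-342-3p, which is abundant in lymphocytes. Among miRNAs that knockdown cells held at far higher levels than control cells, it was -4.17 for miR-363-3p and -2.72 for miR-99a-5p. Those low in knockdown EVs were miR-222-5p at -4.06, miR-27a-5p at -2.49 and miR-125a-5p at -1.98. The entries that overlap other RNAs stood at -3.74 for miR-4516 and -1.88 for miR-1246.

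Changes in the other direction were 1.26 for miR-365a-3p and for its identical entry miR-365b-3p, 1.18 for miR-34c-5p, 1.11 for miR-15b-5p and 0.89 for miR-19a-3p. They were 0.75 for miR-629-5p, 0.73 for miR-7-5p, 0.72 for miR-152-3p, 0.63 for miR-15a-5p and 0.60 for miR-424-5p. Smaller ones were 0.60 for miR-138-5p, 0.55 for miR-503-5p, 0.51 for miR-19b-3p and 0.34 for miR-21-5p. The call of miR-629-5p was lost without knockdown EV replicate 2 (adjusted p = 0.0721) and without knockdown cell replicate 2 (adjusted p = 0.0935) in edgeR.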

How the results depend on the processing

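The count of 116 calls ran between 88 and 135 over the alternatives, apart from 58 with all libraries thinned to the shallowest depth. The split by direction was less stable. Higher calls numbered 18 in the fit as reported, 39 with RLE factors, 68 with total counts, 51 in DESeq2, 48 with no filter, 38 with the fit restricted to the 396 miRNAs, 29 with a GC correction and 28 with a GC correction and the replicate block. Leaving out one library gave 19 to 30 higher calls, 30 without knockdown EV replicate 2 and 28 without control EV replicate 1. Lower calls numbered 98 as reported, 49 with total counts, 40 with no filter and 40 after thinning, and 67 to 78 with one library left out. EV against cell calls in the control line were 221 as reported and 91 after thinning. The causes of these shifts were not tested, except that thinning removes most counts of the deeper libraries.

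With the replicate number as a block the calls were 116, 98 lower and 18 higher, and with a block within each line 113. Same-numbered libraries correlated in their deviations from the group means by -0.14 to 0.11. With 2 replicates per group this cannot decide whether equal numbers share a culture, which the labels do not say.

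Of the 65 miRNAs named, 6 changed sign with total counts, 6 with no filter, 6 after thinning and 0 to 5 under the other alternatives. Those called before or after the change were, with total counts, let-7i-5p at 0.30, miR-221-3p at 0.15 and miR-23a-3p at 0.47; with no filter, miR-221-3p at 0.15 and miR-23a-3p at 0.48; and after thinning, miR-20b-5p at 1.25 and miR-4516 at 1.89. Of the 57 calls among the miRNAs named, 15 were lost after thinning and 13 with no filter. In all 24 alternatives 21 lower and 5 higher calls held, and in all 8 fits without one library 52 and 11. Why the other calls were lost was not tested. In the knockdown EVs 208 of the 396 miRNAs had fewer than 20 counts.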
